A study of Saccharomyces cerevisiae with 24 samples.

Results

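The 10 genes of *Saccharomyces cerevisiae* described here, *ATG10*, *CIN4*, *PDR11*, *SOM1*, *MST28*, *PRM9*, *FDC1*, *GUP2*, *DCV1* and *HIM1*, had mRNA levels more than 2-fold lower than wild type in every one of 7 mutants that lack the histone variant H2A.Z (Htz1), a subunit of the SWR1 complex, or both. They were chosen by that property, a log2 difference below -1 in all 7 mutants, so the difference from wild type is a description and was given no test. The 10 genes are represented by 11 probe sets, 2 of them for *MST28*, out of 5498 probe sets (5449 genes) that the array annotation pairs with a single yeast gene. In all, 39 probe sets of 38 genes met the threshold, which is 0.709% of those examined, and the 10 genes are a selection from these 38.

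Each of 8 strains was grown as 3 independent cultures, and the RNA of every culture was hybridized to its own Affymetrix yeast array, 24 in all. The mutants were *htz1Δ*, *swr1Δ*, *swc2Δ*, *swc5Δ* and the double mutants *htz1Δ swr1Δ*, *htz1Δ swc2Δ* and *htz1Δ swc5Δ*, and the wild type was BY4741. Cultures were taken in mid-log phase in the medium called SMM at 30 °C. All strains are haploid *MATa* with the same *HIS3*, *LEU2*, *URA3* and *MET15* auxotrophies, and the deletions are complete gene replacements. The *htz1Δ* strain also lacks *BAR1*, which encodes the protease that degrades alpha-factor, and none of the other strains does. The *htz1Δ swc5Δ* strain also lacks *LYS2*. Each double mutant is a single segregant of a cross, and the labels give the *swr1Δ* cultures different strain names that were taken as cultures of the same strain.

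H2A.Z replaces H2A in nucleosomes beside many yeast promoters, and the SWR1 complex, with the ATPase Swr1, carries out the exchange. Swc2 binds H2A.Z and Swc5 is needed for the exchange itself. In yeast the variant is known for its presence at inactive promoters that have to be switched on and for keeping genes near the telomeres from being silenced. The 10 genes have unlike roles. *ATG10* encodes the conjugating enzyme that joins Atg12 to Atg5 in autophagy, *SOM1* a small subunit of the mitochondrial inner membrane peptidase, and *PDR11* an ABC transporter that takes up sterols when oxygen is lacking. *MST28* and *PRM9* encode membrane proteins of the DUP240 family, which act in vesicle traffic. *CIN4* encodes a small GTPase of beta-tubulin folding, *FDC1* the decarboxylase of ferulic and cinnamic acids, *GUP2* a membrane protein linked to glycerol uptake, *DCV1* a membrane protein related to claudins, and *HIM1* a protein of DNA repair and mutagenesis.

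At the deleted genes the arrays read as their labels say, except at *HIS3*. Mean log2 values of *HTZ1* lay at 2.74 to 3.09 in the strains that lack it, and those of *SWR1* at 2.65 to 3.25, *VPS72* (the gene of Swc2) at 3.78 to 4.26 and *SWC5* at 2.59 to 2.72, against 7.66 or more in every strain that carries them. *BAR1* averaged 2.94 in *htz1Δ* and at least 11.65 elsewhere, and *LYS2* 3.42 in *htz1Δ swc5Δ* and at least 10.67 elsewhere. *URA3*, *MET15* (listed as *MET17*) and *LEU2* stayed between 2.43 and 4.97 in all strains, while the *HIS3* probe set read 10.97 or more in all of them. The 6 **a**-cell genes *STE2*, *STE6*, *MFA1*, *MFA2*, *AGA2* and *ASG7* averaged 8.54 to 13.38 in all strains. Of the alpha-cell genes, both alpha-factor genes averaged 3.95 to 5.31 and *SAG1* 8.28 to 9.29, while *STE3*, the receptor for **a**-factor, averaged 4.95 to 5.63 in the mutants and 7.72 in wild type. Its part in the differences below was not tested. The deposited arrays did not all share a level. Their medians lay between 9.29 and 9.30 for *swr1Δ*, between 10.06 and 10.10 for *swc2Δ* and between 9.97 and 9.99 for *swc5Δ*, while the remaining 15 arrays, wild type included, had medians of 9.71 to 9.77. The 9 deviating arrays were brought to the common level by rank. Since the arrays measure RNA relative to all RNA of a culture, fewer cells that express a gene and less RNA per cell cannot be told apart.

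*SOM1* had the largest mean difference from wild type of the 10 genes, with an average of -2.67 on the log2 scale (6.36-fold). Its log2 values were 7.39, 7.60 and 7.34 in *htz1Δ*, 6.21, 6.08 and 6.32 in *swr1Δ*, 7.09, 6.77 and 6.87 in *swc2Δ* and 6.85, 6.33 and 6.45 in *swc5Δ*. They were 6.63, 6.30 and 6.34 in *htz1Δ swr1Δ*, 7.53, 6.88 and 7.18 in *htz1Δ swc2Δ* and 7.02, 7.03 and 6.72 in *htz1Δ swc5Δ*, against 9.46, 9.38 and 9.58 in wild type. The highest mutant array was thus 1.78 below the lowest wild-type array. The *htz1Δ* strain was the least affected, with a difference of -2.03 ± 0.15 (SE of the fit, n = 3 per strain), and *swr1Δ* the most, with -3.27 ± 0.15.

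The DUP240 neighbours *MST28* and *PRM9* came next. On the *MST28* probe set that Affymetrix designed for that gene alone, the values were 5.06, 5.40 and 5.32 in *htz1Δ*, 6.08, 6.15 and 6.14 in *swr1Δ*, 5.50, 5.86 and 6.33 in *swc2Δ* and 5.78, 6.39 and 6.35 in *swc5Δ*. They were 6.29, 5.82 and 5.76 in *htz1Δ swr1Δ*, 5.57, 5.78 and 5.79 in *htz1Δ swc2Δ* and 5.69, 6.08 and 5.97 in *htz1Δ swc5Δ*, against 8.39, 8.58 and 8.41 in wild type. No array of any mutant came within 2.0 of the wild-type arrays, and *htz1Δ* was the lowest strain, at -3.21 ± 0.19 (9.23-fold). The other *MST28* probe set carries the suffix for probes shared by similar transcripts, so related DUP240 genes may contribute to it. It ranged from 7.17 to 7.83 in the mutant arrays (median 7.37) against 9.19, 9.55 and 9.24 in wild type, and its differences lay in a narrow band of -2.05 to -1.68. *PRM9*, whose product is induced by mating pheromone, ranged from 5.47 to 6.64 in the mutant arrays (median 6.02) against 8.42, 8.69 and 8.34 in wild type, with differences of -2.77 ± 0.16 in *swc2Δ* to -2.08 ± 0.16 in *swc5Δ*.

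*PDR11* varied most among the mutants. It read 5.89, 5.14 and 5.82 in *htz1Δ*, 6.28, 6.43 and 6.31 in *swr1Δ*, 5.96, 6.05 and 6.72 in *swc2Δ* and 6.64, 6.86 and 7.25 in *swc5Δ*. In *htz1Δ swr1Δ* it read 6.26, 6.26 and 6.29, in *htz1Δ swc2Δ* 5.84, 6.23 and 6.17 and in *htz1Δ swc5Δ* 6.34, 6.52 and 6.46, against 8.46, 8.61 and 8.48 in wild type. All mutant arrays were lower than all wild-type arrays, by 1.21 or more. Strain means of the mutants spanned 1.30, from -2.90 ± 0.19 against wild type in *htz1Δ* (7.46-fold) to -1.60 ± 0.19 in *swc5Δ* (3.03-fold).

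*ATG10* read 5.77, 6.07 and 5.70 in *htz1Δ*, 5.90, 5.85 and 6.02 in *swr1Δ*, 6.04, 6.01 and 6.22 in *swc2Δ* and 5.51, 5.72 and 5.66 in *swc5Δ*. It read 6.11, 6.05 and 6.19 in *htz1Δ swr1Δ*, 6.48, 6.49 and 6.55 in *htz1Δ swc2Δ* and 6.31, 6.42 and 6.49 in *htz1Δ swc5Δ*, against 7.53, 7.83 and 7.84 in wild type. The single mutant *swc5Δ* was furthest from wild type, at -2.10 ± 0.10 (4.30-fold), and *htz1Δ swc2Δ* nearest to it, at -1.23 ± 0.10 (2.34-fold). *CIN4* read 7.84, 7.69 and 7.80 in *htz1Δ*, 8.18, 7.99 and 8.12 in *swr1Δ*, 8.09, 7.93 and 8.34 in *swc2Δ* and 8.26, 8.14 and 8.40 in *swc5Δ*. It read 8.18, 8.15 and 8.21 in *htz1Δ swr1Δ*, 8.39, 8.29 and 8.68 in *htz1Δ swc2Δ* and 8.45, 8.23 and 8.43 in *htz1Δ swc5Δ*, against 9.45, 9.41 and 9.57 in wild type. All 3 *htz1Δ* arrays of *CIN4* were below every other array, with a difference from wild type of -1.70 ± 0.10 (3.24-fold).

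The remaining 4 genes differed little among the mutants. *GUP2* ranged from 5.14 to 5.94 in the mutant arrays (median 5.43) against 7.19, 7.06 and 6.95 in wild type, a mean difference of -1.59 (3.02-fold). *FDC1* ranged from 7.97 to 8.83 (median 8.54) against 9.79, 9.78 and 9.82 in wild type, a mean difference of -1.26 (2.39-fold). *HIM1* ranged from 5.18 to 5.96 (median 5.63) against 6.66, 6.74 and 7.08 in wild type, a mean difference of -1.20 (2.30-fold). *DCV1* ranged from 3.32 to 4.06 (median 3.72) against 5.20, 5.46 and 5.21 in wild type. On 12 of the 21 mutant arrays its value was at or below 3.79, the 95th percentile of the probe sets made for another yeast species, so its difference of -1.56 on average ends near the background of the arrays. No mutant array of any of the 11 probe sets overlapped the wild-type arrays, which the choice of the genes favours. The share of all probe sets without such overlap was not computed. The lowered share among all 5498 probe sets, over 2-fold at an adjusted p under 0.05, was 3.55% in *htz1Δ*, 1.78% in *swr1Δ*, 1.6% in *swc2Δ*, 2.27% in *swc5Δ*, 2.06% in *htz1Δ swr1Δ*, 1.67% in *htz1Δ swc2Δ* and 1.49% in *htz1Δ swc5Δ*. All 7 comparisons share the 3 wild-type arrays, so they are not 7 separate measurements of the same fall.

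**Figure D1:**
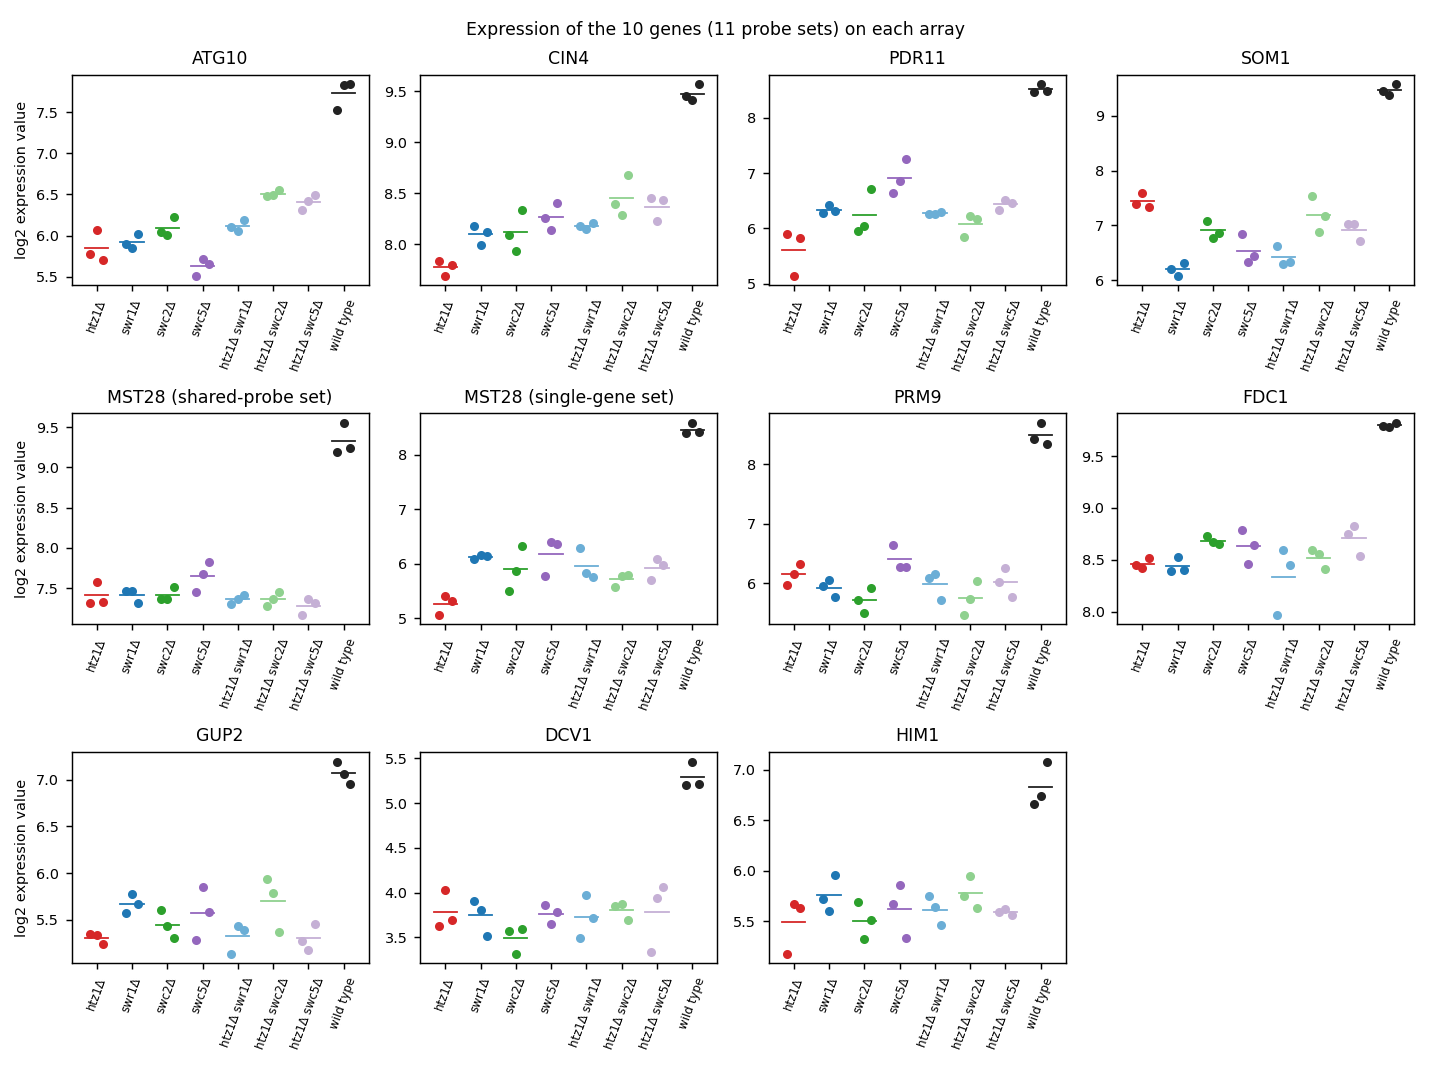
Log2 expression value (vertical axis, a separate scale in each panel) of the 11 probe sets on each of the 24 arrays, with the mutants from left and wild type on the right; points are arrays and lines are means of 3. The wild-type points lie above every mutant point in each panel, by 0.70 (*HIM1*) to 2.0 (*MST28*, single-gene set). The choice of the genes favours this separation.

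The threshold of -1 falls inside a continuous range. Just inside it, the least affected mutants had differences of -1.02 for *CIN4*, -1.04 for *HIM1* and -1.09 for *FDC1*, the first pair in *htz1Δ swc2Δ* and the last in *htz1Δ swc5Δ*. Just outside it were *AIF1*, with -0.99 in its least affected mutant, *COS10* with -0.96 and *YAL064W* with -0.96. The 28 other genes that met the threshold were led by *SSP1*, with a mean difference of -3.38, then by *PHO84* with -3.20, *SOR2* with -2.69, *STE3* with -2.46, *YIR042C* with -2.34, *SEO1* with -2.26, *SPL2* with -2.22, *PHM6* with -2.02, *PHO5* with -1.87 and *PHO11* with -1.77. *CIN4* and *HIM1* left the list without wild-type replicate 3 (least differences of -0.97 and -0.92). *CIN4* also left it without *htz1Δ swc2Δ* replicate 1 or 2 (-0.99 and -0.94), and *HIM1* without *swr1Δ* replicate 2 or *htz1Δ swc2Δ* replicate 3 (-0.99 and -0.97).

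**Figure D2:**
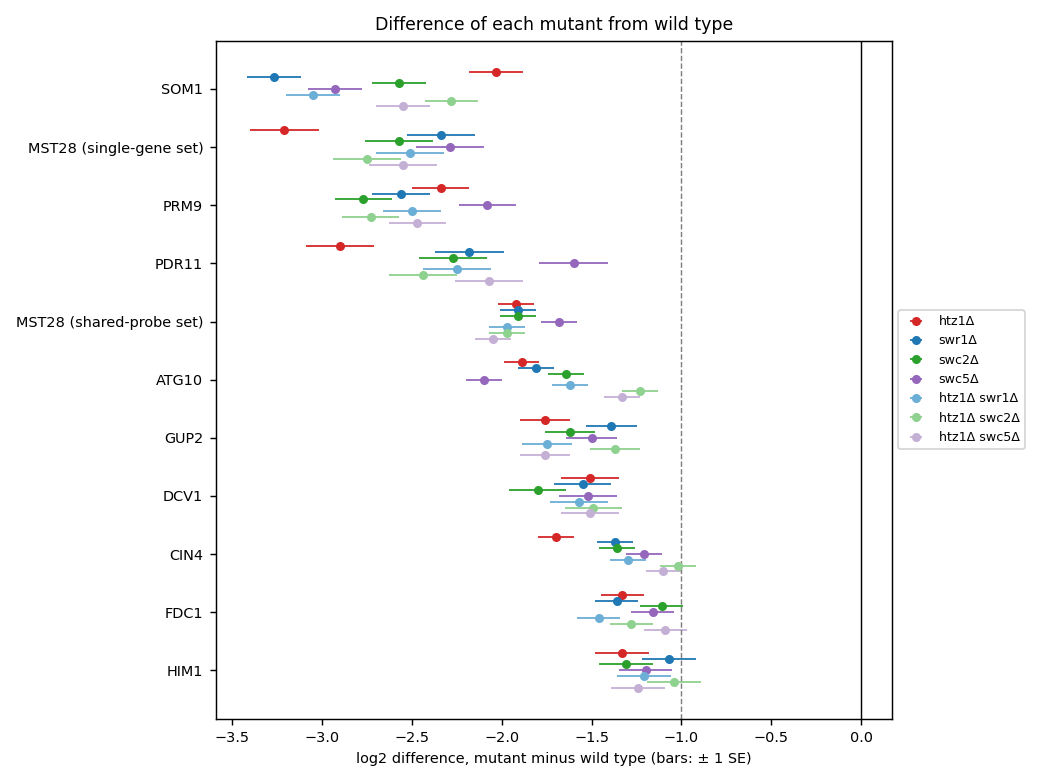
Log2 difference of each mutant from wild type (horizontal axis, bars ± 1 SE of the fit) for the 11 probe sets, with the threshold of -1 dashed. The differences run from -3.27 (*SOM1*, *swr1Δ*) to -1.02 (*CIN4*, *htz1Δ swc2Δ*).

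The rule set each mutant against wild type and no mutant directly against another. It still kept only genes that were low in every mutant. A gene near its wild-type level in any mutant could therefore not be among the 10. This limits the differences that could be found, and the comparison with all probe sets, in every test between mutants below. Within that limit, differences between mutants were tested, with limma across all 5498 probe sets and an adjusted p under 0.05 as the call. The first question was whether removal of a SWR1 subunit changed the 10 genes in cells without H2A.Z. Of the 11 probe sets, 5 were called in *htz1Δ swr1Δ* against *htz1Δ* (38.1% of all probe sets were), 3 in *htz1Δ swc2Δ* (34.9%) and 5 in *htz1Δ swc5Δ* (32.5%). These shares, 45.5%, 27.3% and 45.5% of the 11, are near those of all genes, which were not chosen by the rule. Because the *htz1Δ* strain alone lacks *BAR1*, loss of *BAR1* and presence of the SWR1 subunit cannot be told apart here. The 3 comparisons also share the *htz1Δ* arrays. Only *htz1Δ swc5Δ* lacks *LYS2*, so in this and all later comparisons with that strain, loss of *LYS2* cannot be told apart from the other deletions.

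*CIN4* was higher in all 3 double mutants than in *htz1Δ*, by 0.40 ± 0.10 with *swr1Δ* (adjusted p = 0.0063), 0.67 ± 0.10 with *swc2Δ* (adjusted p = 0.000126) and 0.59 ± 0.10 with *swc5Δ* (adjusted p = 0.000433). *ATG10* was higher as well, by 0.66 ± 0.10 with *swc2Δ* (adjusted p = 7.42e-05), 0.56 ± 0.10 with *swc5Δ* (adjusted p = 0.000346) and 0.27 ± 0.10 with *swr1Δ* (adjusted p = 0.0338), the last of which was lost without *htz1Δ* replicate 1 or 3 or *htz1Δ swr1Δ* replicate 1 or 3. *PDR11* was higher by 0.82 ± 0.19 in *htz1Δ swc5Δ* (adjusted p = 0.0034) and by 0.65 ± 0.19 in *htz1Δ swr1Δ* (adjusted p = 0.0128), while 0.46 ± 0.19 in *htz1Δ swc2Δ* did not pass (adjusted p = 0.0701). The second *htz1Δ* culture had the lowest *PDR11* value of all arrays, and without it the call in *htz1Δ swr1Δ* was lost (0.41, adjusted p = 0.0981). *PDR11* also lies 3 coding genes from *BAR1* on chromosome IX, the locus replaced in *htz1Δ* only. The gene-specific *MST28* probe set was higher by 0.70 ± 0.19 in *htz1Δ swr1Δ* (adjusted p = 0.007) and by 0.66 ± 0.19 in *htz1Δ swc5Δ* (adjusted p = 0.0118), and *GUP2* by 0.39 ± 0.14 in *htz1Δ swc2Δ* (adjusted p = 0.0379). The *GUP2* call was lost without any 1 *htz1Δ* array and without *htz1Δ swc2Δ* replicate 1 or 2. Without *htz1Δ* replicate 1 the *MST28* call in *htz1Δ swc5Δ* was lost (adjusted p = 0.0532).

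*SOM1* ran the other way. It was lower than in *htz1Δ* by -1.02 ± 0.15 in *htz1Δ swr1Δ* (adjusted p = 6.81e-05) and by -0.52 ± 0.15 in *htz1Δ swc5Δ* (adjusted p = 0.0141), and -0.25 ± 0.15 in *htz1Δ swc2Δ* did not pass (adjusted p = 0.219). The *htz1Δ swr1Δ* difference passed in all 30 alternatives that kept the gene, the exception being a filter on dim probe sets that removed it. The one in *htz1Δ swc5Δ* was lost without *htz1Δ* replicate 2 or *htz1Δ swc5Δ* replicate 3, the highest adjusted p being 0.0726. *PRM9*, *FDC1*, *DCV1*, *HIM1* and the shared-probe *MST28* set were called in none of these comparisons.

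Set directly against the single mutants of the SWR1 complex, *htz1Δ* showed the same split of *SOM1* from *CIN4*, *PDR11* and the gene-specific *MST28* set. The *htz1Δ* arrays are those used above. *ATG10* did not repeat its pattern, at -0.08 ± 0.10 against *swr1Δ* (adjusted p = 0.532) and 0.22 ± 0.10 against *swc5Δ* (adjusted p = 0.0878). Loss of *BAR1* cannot be told apart from the other deletions here either. Of the 11, 5 were called against *swr1Δ* (43% of all), 6 against *swc2Δ* (41.2%) and 4 against *swc5Δ* (34.9%). *SOM1* was higher in *htz1Δ* than in *swr1Δ* by 1.24 ± 0.15 (adjusted p = 8.48e-06), than in *swc5Δ* by 0.90 ± 0.15 (adjusted p = 0.000313) and than in *swc2Δ* by 0.53 ± 0.15 (adjusted p = 0.00946). *PDR11* was lower in *htz1Δ* by -1.30 ± 0.19 against *swc5Δ* (adjusted p = 9.57e-05), -0.72 ± 0.19 against *swr1Δ* (adjusted p = 0.00598) and -0.62 ± 0.19 against *swc2Δ* (adjusted p = 0.0146). The gene-specific *MST28* set was lower by -0.92 ± 0.19, -0.86 ± 0.19 and -0.64 ± 0.19 against *swc5Δ*, *swr1Δ* and *swc2Δ*, and *CIN4* by -0.49 ± 0.10, -0.32 ± 0.10 and -0.34 ± 0.10, all 6 at an adjusted p of 0.0196 or less. Against *swc2Δ* the calls of *PDR11*, *MST28* and *CIN4* were lost without *swc2Δ* replicate 3, whose values were the highest of its strain in each, with differences of -0.39 for *PDR11* and -0.42 for *MST28*. Against *swc2Δ*, those of *PDR11*, *CIN4* and *SOM1* were also lost without *htz1Δ* replicate 2 (-0.38 for *PDR11*), and against *swr1Δ* that of *CIN4* was lost without *htz1Δ* replicate 2 or *swr1Δ* replicate 1 or 3. The remaining calls, *GUP2* lower against *swr1Δ* (-0.36 ± 0.14, adjusted p = 0.0427), *ATG10* lower against *swc2Δ* (-0.24 ± 0.10, adjusted p = 0.0495) and *PRM9* higher against *swc2Δ* (0.44 ± 0.16, adjusted p = 0.041), were each lost in 4 or more of the 24 fits that left out an array. Under the deposited levels the calls of *PDR11* against *swr1Δ* (-0.24) and of *SOM1* (0.21) and *PRM9* (0.05) against *swc2Δ* were lost. Those of *CIN4* and *GUP2* against *swr1Δ* turned direction there. Quantile normalization lost the calls of *PDR11*, *MST28* and *ATG10* against *swc2Δ* and of *GUP2* against *swr1Δ*.

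At the common level of the arrays, the double mutants differed little from the single mutants of the same SWR1 subunit. None of the 11 probe sets was called in limma between *htz1Δ swr1Δ* and *swr1Δ* (1.24% of all were, and 1 of the 11 had an unadjusted p under 0.05), and none between *htz1Δ swc2Δ* and *swc2Δ* (0.0728% of all, 2 of the 11 at an unadjusted p under 0.05). In *htz1Δ swc5Δ* against *swc5Δ* 2 were called (6.89% of all, 5 of the 11 at an unadjusted p under 0.05). *ATG10* was higher in the double mutant by 0.78 ± 0.10 (adjusted p = 0.000129), and passed in every alternative that kept the gene. The shared-probe *MST28* set was lower by -0.37 ± 0.10 (adjusted p = 0.0381), and the call was lost without *htz1Δ swc5Δ* replicate 1 or 2 or *swc5Δ* replicate 2 or 3. Of 33 such differences, 32 were smaller than 0.5, and the exception was *ATG10* in the *swc5Δ* pair. The share of all probe sets under 0.5 was not computed. The choice of genes low in both strains of each pair also favours small differences. All 33 differences rest on single-mutant arrays brought to the common level. Many more were called under the deposited levels, as given in the closing section.

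In a comparison added after the data were seen, the effect of *HTZ1* deletion on *ATG10* was called different between backgrounds in the main fit. It was 0.78 in *swc5Δ* cells and 0.19 in *swr1Δ* cells, a difference of 0.58 ± 0.14 (adjusted p = 0.0413, with 1.16% of all probe sets called). This call was lost in 15 of the 24 fits that left out an array, with quantile normalization and with pairwise fits. Under the deposited levels the difference itself was 0 (adjusted p = 0.997). Over all alternatives the adjusted p ran from 0.00767 to 0.997. No other probe set of the 11 was called for a difference of this kind. The difference for *GUP2* between *swc2Δ* and *swr1Δ* cells, 0.61 ± 0.20, did not pass (adjusted p = 0.301).

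Among the double mutants, 2 of the 11 probe sets were called between *htz1Δ swc2Δ* and *htz1Δ swr1Δ* (20.9% of all), 3 between *htz1Δ swc5Δ* and *htz1Δ swr1Δ* (18.3%) and none between *htz1Δ swc5Δ* and *htz1Δ swc2Δ* (0.109%, with 1 of the 11 at an unadjusted p under 0.05). *SOM1* was higher by 0.77 ± 0.15 in *htz1Δ swc2Δ* (adjusted p = 0.00158) and by 0.50 ± 0.15 in *htz1Δ swc5Δ* (adjusted p = 0.0294) than in *htz1Δ swr1Δ*. *ATG10* was higher by 0.39 ± 0.10 (adjusted p = 0.00806) and 0.29 ± 0.10 (adjusted p = 0.0443) in the same comparisons, and *FDC1* by 0.37 ± 0.12 in *htz1Δ swc5Δ* (adjusted p = 0.0321), where the first *htz1Δ swr1Δ* culture was the lowest *FDC1* array of all. Without that culture the *FDC1* difference was 0.19 and the call was lost (adjusted p = 0.186), as it was without *htz1Δ swc5Δ* replicate 1 or 2 (0.35 and 0.31). The *SOM1* and *ATG10* calls with *htz1Δ swc2Δ* passed in every alternative that kept these genes, and those with *htz1Δ swc5Δ* were lost without either of 2 *htz1Δ swc5Δ* cultures (replicates 1 and 2) and without *htz1Δ swr1Δ* replicate 2 or 3, that of *ATG10* in 11 of the 24 such fits in all.

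Among the single mutants, 1 probe set was called between *swc2Δ* and *swr1Δ* (22% of all), 3 between *swc5Δ* and *swr1Δ* (21.7%) and 2 between *swc5Δ* and *swc2Δ* (3.51%). *SOM1* was higher in *swc2Δ* than in *swr1Δ* by 0.71 ± 0.15 (adjusted p = 0.00293), the same order as in the double mutants with these deletions, and this passed in every alternative that kept the gene. *ATG10* was lower in *swc5Δ* than in *swc2Δ*, by -0.46 ± 0.10 (adjusted p = 0.0107), and than in *swr1Δ*, by -0.30 ± 0.10 (adjusted p = 0.0354). *PDR11* was higher in *swc5Δ* than in *swr1Δ* by 0.57 ± 0.19 (adjusted p = 0.0393), and *PRM9* higher in *swc5Δ* than in *swc2Δ* by 0.69 ± 0.16 (adjusted p = 0.0231) and than in *swr1Δ* by 0.48 ± 0.16 (adjusted p = 0.0446). All of these but *SOM1* were lost when an array of a compared strain was left out, *ATG10* against *swc2Δ* without *swc2Δ* replicate 3 only and *PRM9* against *swc2Δ* without *swc2Δ* replicate 1 or 2. These comparisons rest wholly on the 9 arrays brought to the common level. Under the deposited levels, 24 of the 33 differences among single mutants were called. *ATG10* was then higher in *swc5Δ* than in *swr1Δ* (0.29, adjusted p = 0.00672), so the direction of that difference depends on the levels used.

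The 10 genes lie on 8 chromosomes. *MST28* and *PRM9* are next to each other, 9 and 10 coding genes from an end of chromosome I, and *FDC1* is the fifth from an end of chromosome IV. These 3 are within the 15 outermost coding genes of a chromosome arm, as are 480 of all 6002 coding genes (8.00%). The other 7 are farther in, from 19 (*SOM1*) to 217 (*HIM1*) genes from the nearer end.

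Of the 14 probe sets of genes directly beside a member and not members themselves, 2 were lowered more than 2-fold at an adjusted p under 0.05 in any mutant, and 1 of these in all 7. In each of the 7 mutants, taken separately, 1 or 2 of the 14 were lowered, against 1.49% to 3.55% of all probe sets. *YFR012W-A*, an open reading frame beside *DCV1* on the same strand, was lowered in all 7 mutants, by -2.14 ± 0.20 in *htz1Δ swr1Δ* to -1.34 ± 0.20 in *swc5Δ* and *htz1Δ swc2Δ*. Its values were 3.32, 3.29 and 3.30 in *htz1Δ swr1Δ* against 5.29, 5.73 and 5.30 in wild type. Its mean was below the background mark of 3.79 used for *DCV1* in *htz1Δ swr1Δ* (3.30) and *swr1Δ* (3.69). In the other mutants it was 3.95 to 4.10, not far above that mark. *IRC4*, beside *FDC1* on the opposite strand, was lowered in 5 mutants and read 5.26, 5.69 and 4.97 in *swc2Δ*, the lowest strain, against 6.54, 6.73 and 6.44 in wild type, a difference of -1.27 ± 0.15 (adjusted p = 6.7e-06). It did not pass in *htz1Δ* (-0.35 ± 0.15, adjusted p = 0.0648) and was just above the threshold in *htz1Δ swr1Δ* (-0.99 ± 0.15).

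On the other side of *FDC1* lies *PAD1*, which makes the flavin cofactor that the Fdc1 enzyme needs. It was lower than wild type in all 7 mutants at an adjusted p of 0.000552 or less, but by under 2-fold, from -0.88 ± 0.09 in *swr1Δ* to -0.46 ± 0.09 in *swc5Δ*. *YDR541C*, which is 2 places from *FDC1*, was lowered in all 7 mutants by -2.52 to -1.12. Beside *SOM1*, *PRB1*, which encodes vacuolar protease B, was higher in all 7 mutants, by 0.41 ± 0.13 (adjusted p = 0.0172) in *htz1Δ swc2Δ* to 1.31 ± 0.13 in *htz1Δ*, where it passed the 2-fold threshold. The other adjacent genes measured, *FPS1*, *SDH2*, *PSO2*, *RIM11*, *MNT3*, *YAT1*, *COA2*, *POS5*, *MIC19* and *MCM21*, stayed within 0.80 of wild type in all mutants. Below 2-fold, at an adjusted p under 0.05, *RIM11* was lower in 6 mutants, *MCM21* in 5 and *FPS1* in 4, and *PSO2* was higher in 4. *SDH2* was higher in *htz1Δ* only (0.80, adjusted p = 5.37e-05), and the rest passed in 1 or 2 mutants each. Of 32 probe sets 2 or 3 places away, 1 to 3 were lowered and 0 or 1 raised in each mutant. In any mutant 3 were lowered and 2 raised, and the share of all probe sets in any mutant was not computed. The lowered ones were *YDR541C*, *SDD1* beyond *SOM1* (in 6 mutants, -1.25 at the lowest) and the deleted *BAR1* in *htz1Δ*, and the raised ones *CIN8* near *SOM1* (1.20 in *swc5Δ*) and *FIT1* near *FDC1* (1.37 in *htz1Δ swc5Δ*). The raised share of all probe sets, for reference, was 2.11% in *htz1Δ*, 0.837% in *swr1Δ*, 0.746% in *swc2Δ*, 0.527% in *swc5Δ*, 0.764% in *htz1Δ swr1Δ*, 0.509% in *htz1Δ swc2Δ* and 0.673% in *htz1Δ swc5Δ*.

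**Figure D3:**
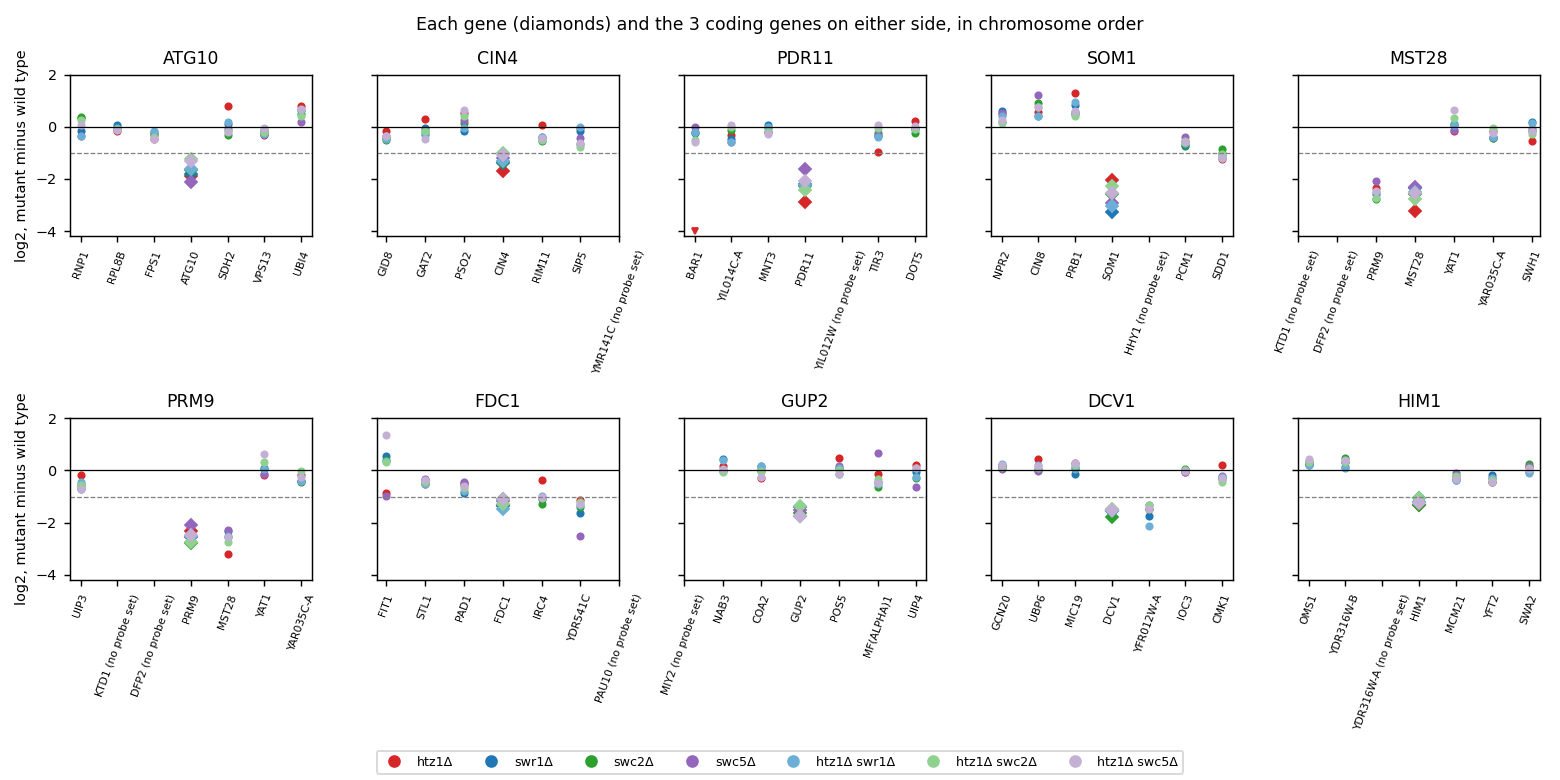
Log2 difference of each mutant from wild type (vertical axis) for the 10 genes (diamonds) and the 3 coding genes on either side, in the order of the chromosome; the triangle marks *BAR1* in *htz1Δ*, which lies below the axis at -9.30. *YFR012W-A* (-2.14 to -1.34) and *YDR541C* (-2.52 to -1.12) lie below -1 in all 7 mutants, while *IRC4* runs from -1.27 to -0.35 and *SDD1* from -1.25 to -0.87.

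Few of the pathway partners of the 10 genes passed 2-fold. Of 78 probe sets from 83 listed genes, 4 were lowered and 10 raised more than 2-fold at an adjusted p under 0.05 in any mutant, and none was lowered in all 7. The share of all probe sets changed in any mutant was not computed. In *htz1Δ* 3 of the 78 were lowered (3.85%, against 3.55% of all) and 7 raised (8.97%, against 2.11% of all). In each of the other mutants 0 to 2 were lowered (up to 2.56%, against 1.49% to 2.27% of all). There 1 to 3 were raised (1.28% to 3.85%, against 0.509% to 0.837% of all). The median difference of the 78 was between -0.08 and 0.05 in every mutant, that of all probe sets between -0.04 and 0.01, and that of the 11 probe sets between -1.89 in *htz1Δ* and -1.49 in *htz1Δ swc2Δ*. With no limit on size, 6 of the 78 (7.69%) were lower than wild type in all 7 mutants at an adjusted p under 0.05, as were 5.62% of all probe sets, and 2 (2.56%) were higher in all 7, against 3.42% of all. The 6 were *ATG4*, *ATG9*, *RBL2*, *AUS1*, *MST27* and *PAD1*, and the 2 were *PDR12* and *UBC13*.

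None of the 10 autophagy genes listed with *ATG10*, among them *ATG12*, *ATG5* and *ATG7*, was called over 2-fold in either direction, nor was any of the 9 tubulin folding genes, with *CIN1* and *CIN2*, listed with *CIN4*. Below 2-fold, *ATG4*, the protease that processes Atg8, was lower in all 7 mutants by -0.84 to -0.38 (adjusted p of 0.0176 or less) and *ATG9*, the membrane protein of autophagic vesicles, by -0.66 to -0.35 (0.0478 or less). *RBL2*, which encodes a beta-tubulin binding cofactor, was lower in all 7 by -0.81 to -0.50 (7.34e-05 or less). Other genes of these lists were higher in *htz1Δ*, among them *ATG8* (0.96), *ATG13* (0.93), *ATG3* (0.69) and *TUB1* (0.52), at an adjusted p of 0.000215 or less. *CIN1* was higher by 0.18 to 0.46, at an adjusted p of 0.0346 or less in all mutants but *swr1Δ*. The strain medians were -0.16 to 0.03 for the autophagy list and 0.0 to 0.1 for the tubulin list. Likewise none of 5 genes of the inner membrane peptidase and its substrates was called, and *IMP1* and *IMP2*, the catalytic subunits that Som1 joins, lay between -0.34 and 0.01. None of the 7 genes of the decarboxylation list and none of the 10 genes of the DNA damage bypass list was called either.

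The paralogue of *PDR11*, *AUS1*, which encodes the other sterol importer, was lower than wild type in all 7 mutants at an adjusted p of 4.8e-05 or less. Its differences ran from -1.01 ± 0.10 in *htz1Δ swc2Δ*, the only mutant where it passed 2-fold, to -0.67 ± 0.10 in *swr1Δ*. *UPC2*, the activator of sterol uptake genes, was raised in *swc2Δ* (1.04, adjusted p = 6.24e-06), and *DAN1*, a cell wall protein gene of anaerobic growth, in *htz1Δ swc5Δ* (1.85, adjusted p = 0.00047). Of the ABC transporters, *PDR12*, the exporter of weak acids, was raised in 4 mutants with 1.70 in *htz1Δ* at the top, and *PDR15* in *htz1Δ swc5Δ* (1.11, adjusted p = 0.0141).

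In the DUP240 family, 3 of 8 listed genes had a probe set among those tested. *MST27*, the close relative and partner of *MST28*, read 6.24, 6.11 and 6.29 in *htz1Δ* against 7.56, 7.83 and 7.75 in wild type, a difference of -1.50 ± 0.15 (adjusted p = 2.26e-07). In the 6 other mutants it was lower by -0.90 to -0.49 at an adjusted p of 0.014 or less. Like the gene-specific *MST28* set, it was thus furthest from wild type in *htz1Δ*. *PRM8*, the relative of *PRM9*, was higher than wild type in *htz1Δ* (0.63 ± 0.19, adjusted p = 0.0106) and lower in *swr1Δ* (-0.64 ± 0.19, adjusted p = 0.0142), *swc5Δ* (-0.54, adjusted p = 0.0368) and *htz1Δ swc5Δ* (-0.60, adjusted p = 0.02). *UIP3* lay between -0.71 and -0.16 and was lower in 6 mutants, all but *htz1Δ*, at an adjusted p of 0.0112 or less. Cross-hybridization between these similar genes was not tested.

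Of the other pheromone-regulated membrane protein genes, *PRM6* (2.84), *PRM1* (2.0) and *PRM2* (1.73) were raised in *htz1Δ*, the strain without *BAR1*, whereas *PRM9* was lowered there as in the other mutants. *PRM6* was also raised in the 3 double mutants, by 1.05 to 1.24. *PRM7*, which has 2 probe sets, was lowered in *htz1Δ* (-2.71 and -1.54) and *swc5Δ* (-1.69 and -1.32), and on 1 of the sets in *htz1Δ swr1Δ* (-1.05). *GUP1*, the paralogue of *GUP2*, lay between -0.26 and -0.01 and passed in none of the 7 mutants. Of its list, *GPD2*, a glycerol 3-phosphate dehydrogenase gene, was raised in *htz1Δ* (1.77, adjusted p = 1.01e-06). Among the claudin-like genes listed with *DCV1*, *FMP45* (1.45, adjusted p = 0.0019) and *YNL194C* (1.15, adjusted p = 0.021) were raised in *htz1Δ*.

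**Figure D4:**
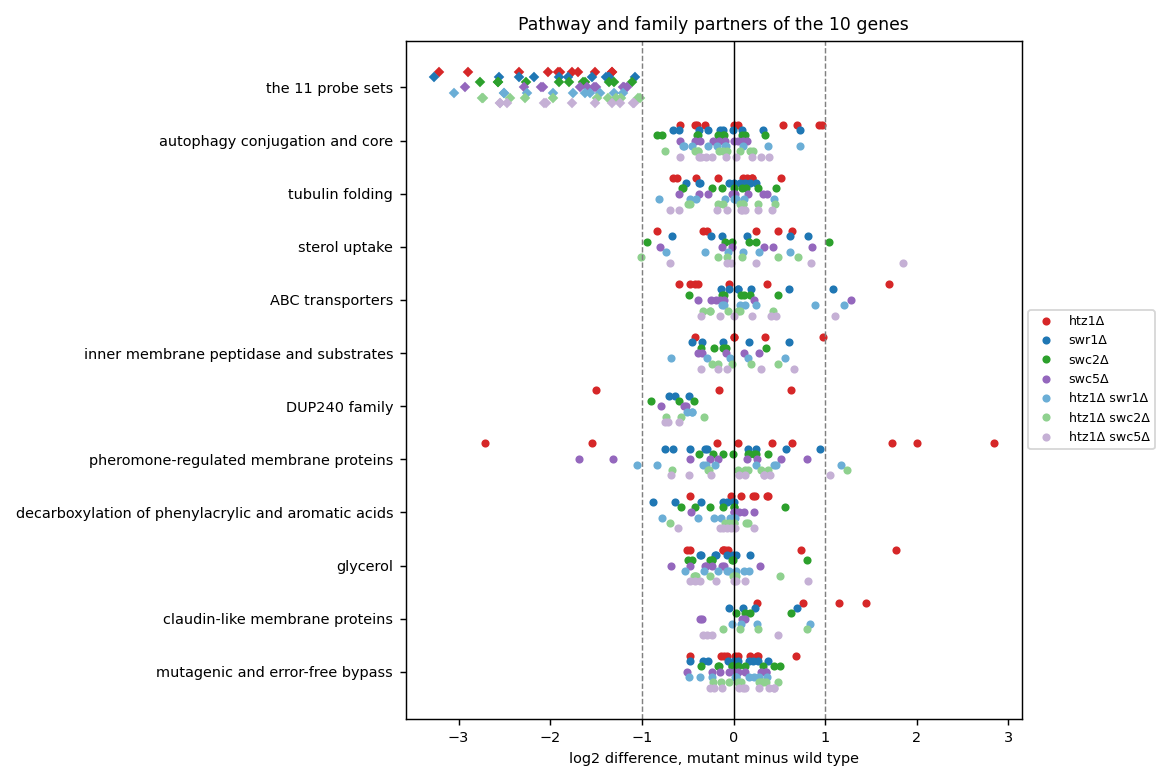
Log2 difference of each mutant from wild type (horizontal axis) for the 11 probe sets (diamonds, top row) and for each gene of the partner lists (circles), with 2-fold dashed. The 78 partner probe sets have medians of -0.08 to 0.05 in the mutants, and *htz1Δ* holds 3 of the 7 values called lowered and 7 of the 16 called raised.

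By the shape of their 8 strain means, the genes most like the average of the 11 probe sets were *SSP1* (Pearson's r = 0.994), *YCR099C* (0.968), *YIR042C* (0.961), *SEO1* (0.957) and *PHO5* (0.955), out of 192 probe sets whose strain means had an SD of at least 0.5. All 5 also met the threshold of -1 in all mutants, and the correlation rests largely on wild type standing apart from the 7 mutants. *SSP1*, which acts in spore formation, averaged between 3.24 and 3.90 in the mutants and 6.95 in wild type.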

How the data were processed

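RNA was hybridized to Affymetrix Yeast Genome 2.0 arrays. Scans were read with GCOS and summarised by RMA, which corrects background, equalises distributions and fits probes by median polish, and the authors deposited the resulting log2 expression values. Which arrays were normalized together is not given in the sources used here. Of 10928 probe sets, 5498 are paired with 1 *S. cerevisiae* gene and were used, 1746 belong to another species and 3684 have no gene here. The 9 arrays of *swr1Δ*, *swc2Δ* and *swc5Δ* received, rank for rank, the mean sorted values of the other 15, which kept their deposited values. One limma 3.58.1 fit (R 4.3.3) held all 24 arrays with 1 mean per strain (16 residual degrees of freedom, prior 2.80), with Benjamini-Hochberg adjustment across the 5498 in each comparison. The fit was tested on simulated data. The number of arrays limits the precision, and the median SD within a strain was 0.07 to 0.15.

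A member was called between mutants at an adjusted p under 0.05, and another gene against wild type at that and over 2-fold. Named genes were the members, their adjacent genes and paralogues, up to 4 called genes per partner list, up to 10 others under the threshold, 3 just outside it, the 5 most alike in shape, and the strain checks. *YDR541C*, *SDD1*, *CIN8*, *FIT1*, *ATG3*, *ATG4*, *ATG8*, *ATG9*, *ATG13*, *RBL2*, *TUB1*, *UBC13*, *UIP3*, *IMP1* and *IMP2* were named after their values were seen. The members and lists were chosen with earlier results of these data known. Gene names and gene order come from the RefSeq annotation of assembly R64, and no coordinates or sequences were used. Alternatives were the deposited levels, quantile normalization, median centring, all probe sets, a filter on dim probe sets, a block for the replicate number, pairwise fits and each array left out.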

Additional observations from a re-analysis of the deposited data

Results flagged for a closer look

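In the main fit, the effect of *HTZ1* deletion on *ATG10* was larger in *swc5Δ* cells than in *swr1Δ* by 0.58 on the log2 scale. The difference itself was tested (limma, adjusted p = 0.0413 over all probe sets, 0.00767 to 0.997 over the alternatives). Under the deposited levels this difference was 0, and its call was also lost in 15 of the 24 fits that left out an array. All 3 *htz1Δ swc5Δ* arrays (6.31, 6.42 and 6.49) were above all 3 *swc5Δ* arrays (5.51, 5.72 and 5.66), and all 3 *htz1Δ swr1Δ* arrays (6.11, 6.05 and 6.19) above those of *swr1Δ* (5.90, 5.85 and 6.02). The *htz1Δ swc5Δ* strain also lacks *LYS2*, and the 2 deletions cannot be told apart in it.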

How the results depend on the processing

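Of 41 calls between mutants, 18 passed in all 30 alternatives that kept their genes, the filter on dim probe sets being the other. With pairwise fits 11 were lost, with all probe sets 10, with quantile normalization 9, and with median centring or the deposited levels 7 each. Under the deposited levels, which shift all genes of *swr1Δ*, *swc2Δ* and *swc5Δ*, 3 differences turned direction. They were *ATG10* in *swc5Δ* against *swr1Δ* (0.29, adjusted p = 0.00672), *CIN4* in *htz1Δ* against *swr1Δ* (0.17, 0.122) and *GUP2* in the same pair (0.13, 0.401). Calls then numbered 24 among single mutants, against 6, and 18 between double and single mutants, against 2, and lowered calls of partner genes over the 7 mutants 16, against 7. Under quantile normalization, lowered calls of adjacent genes were 4, against 12, and calls among double mutants 3, against 5. With all probe sets the calls among double mutants were 2, among single mutants 3 and between double and single mutants 1, and the last was also 1 with median centring and with pairwise fits, where calls among single mutants were 2. Without the dimmest 25% of probe sets *FDC1* was the only gene of the 10 left. Then 1 member, 3 probe sets in all (a count added after the data were seen), 0 calls of adjacent genes and 2 of partner genes met their thresholds, with 1 member call among double mutants and 0 in each of the other 4 families of comparisons.

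Leaving out each array gave 2 to 6 calls among double mutants (fewest without *htz1Δ swc5Δ* replicate 1 or 2, and 3 without any 1 *htz1Δ swr1Δ* array), 3 to 8 among single mutants (3 without *swc5Δ* replicate 3 or any 1 *swr1Δ* array), and 1 to 5 between double and single mutants (1 without *htz1Δ swc5Δ* replicate 1 or 2 or *swc5Δ* replicate 2 or 3, and 5 without *swc5Δ* replicate 1). Of the 11 probe sets, 9 to 11 stayed below -1 in all mutants, and 9 did so with the deposited levels and with quantile normalization, where *HIM1* dropped out both times with *FDC1* in one case and *DCV1* in the other. Cultures share only a number across strains. With a replicate block 1 call was lost, *PRM9* in *swc5Δ* against *swr1Δ*, and the counts were 14 of calls between double mutants and *htz1Δ*, 16 between *htz1Δ* and single mutants and 6 among double mutants. Same-numbered arrays of different strains had a median residual correlation of 0.0945, against -0.0425 for other pairs, and 19 of 24 arrays correlated best with their own number. The number of arrays, and a level near background for *DCV1*, limit these values.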
